A study of Mus musculus with 6 samples.

Results

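The genes described here are 8 genes of cholesterol synthesis and its regulation, Srebf2, Hmgcs1, Sqle, Fdft1, Fdps, Idi1, Lss and Insig1, chosen by symbol from the 19386 genes in the authors' deposited table of gene expression. All 8 were listed there, and all 8 carried an adjusted p-value, as did 12082 genes in all. The samples were 6 cultures of macrophages grown from the bone marrow of wild-type C57BL/6 mice, 3 from smoke-exposed mice (cigarette smoke) and 3 from animals that breathed room air. The marrow had been freed of erythrocytes and cultured with L929 supernatant, a source of the macrophage growth factor CSF1, and the cells were taken on day 11. No agent was added to the cultures of either group, as far as the labels say. The age and sex of the mice and the dose of smoke are not given in the sources used here, and while the labels speak of the cells of each mouse, they do not tie a library to a mouse, so the spread between libraries may be partly technical.

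Cells make cholesterol from acetyl-CoA through the mevalonate route, in which Hmgcs1 encodes an early enzyme. Srebf2 encodes the transcription factor SREBP2, which switches on the genes of this route when sterols in the endoplasmic reticulum are low. Insig1 encodes the protein that holds the SREBP precursor and its escort SCAP in the endoplasmic reticulum when sterols are high, and Insig1 is itself an SREBP target. Macrophages also take up cholesterol from lipoproteins and dead cells and export it through ABCA1 and ABCG1, and they are the cells that become foam cells when uptake exceeds export. The 8 genes cover regulation and synthesis only. None of them encodes an uptake receptor, and genes of uptake are given below from a separate list.

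SREBP2 acts through sterol regulatory elements in promoters, often close to a CCAAT box bound by NF-Y, and the promoters of the 8 genes were searched for both. RefSeq promoter sequences (GRCm38.p6, 250 bases before and 50 after the start site) were matched for 5 of the 8, namely Srebf2, Hmgcs1, Idi1, Lss and Insig1. The letters TCACNCCA, a short form of the sterol regulatory element, were searched on both strands and were found in 2 of these 5 promoters, against 4.36% of all 32851 promoters. The longer form TCACNCCAC, which contains the short one, was found in Hmgcs1 alone among the 5 and in 1.24% of all promoters. CCAAT was found on the reverse strand in all 5, against 37.4% of all promoters on either strand. The pair of promoters that hold the short form are shown over 120 bases upstream of the annotated gene, each on the plus strand, with the matches to TCACNCCA or TCACNCCAC and to CCAAT (read as ATTGG on this strand) in capitals. The Srebf2 stretch is chr15:82147051-82147170 and the Hmgcs1 stretch is chr13:119690158-119690277.
Srebf2: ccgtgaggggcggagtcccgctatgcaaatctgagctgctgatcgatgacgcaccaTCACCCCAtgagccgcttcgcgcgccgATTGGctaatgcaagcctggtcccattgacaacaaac
Hmgcs1: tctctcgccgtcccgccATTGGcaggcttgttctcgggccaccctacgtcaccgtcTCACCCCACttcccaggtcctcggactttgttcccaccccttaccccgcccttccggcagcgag
Counted from the start site, the match begins at position -162 in Srebf2 and at -137 in Hmgcs1. A match to these letters is a description of the sequence and no evidence of binding in these cells. Nor does a missing match show that a promoter lacks a sterol regulatory element.

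For expression, the group means of size-factor-normalized counts and the authors' own comparison were used, so no expression value of a single library is given, and the total count per library is unknown. Splicing levels are available for each library. The cells had the markers of macrophages: all 8 of a macrophage list (Csf1r, Adgre1, Cd68, Itgam, Mertk, Lyz2, Fcgr1 and Cd14) were listed, with means from 348.1 to 24772 normalized counts after smoke and from 401.3 to 23168 in room air, in the authors' deposited table, and none passed the threshold. Of the lists of other cell types, only 3 of 8 neutrophil, 3 of 5 B cell, 1 of 6 erythroid and 4 of 6 dendritic cell genes were listed, none of them above 6.06 normalized counts in either group. The T cell list had Cd4 alone, which macrophages can express, at 29.0 in room air and 22.4 after smoke. Markers of stromal cells were low, with a summed mean over 6 genes of 47.1 normalized counts in room air and 9.97 after smoke. All 6 estimates were below 0, but none had an adjusted p under 0.05 (DESeq2), where 7.69% of all genes tested did. The part of stromal cells in the values below was not tested.

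None of the 8 genes passed the threshold between smoke and room air. In the authors' deposited table, 0 of 8 had an adjusted p under 0.05 (DESeq2), where 7.69% of all genes tested did (4.15% higher and 3.53% lower after smoke), and 0 of 8 had an unadjusted p under 0.05, where 22.8% did. The means were higher after smoke for 7 of the 8 and lower for Insig1, and the median log2 fold change of the 8 in the authors' deposited table was 0.39, against -0.0029 over all genes tested, of which 49.7% were above 0. The smallest adjusted p among them in the authors' deposited table was 0.466, for Fdps. The count was also 0 of 8 at an adjusted p under 0.1, where 12.8% of all genes passed, at 0.01 (3.03%), without the filter on low means (3.55%), with a mean of at least 50 (10.1%) and with the median fold change set to 0 (7.66%). A p above the threshold does not show that the groups were alike, and the interval of each gene is given below. In bulk RNA, fewer cells that express a gene and less RNA of that gene per cell cannot be told apart.

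**Figure D1:**
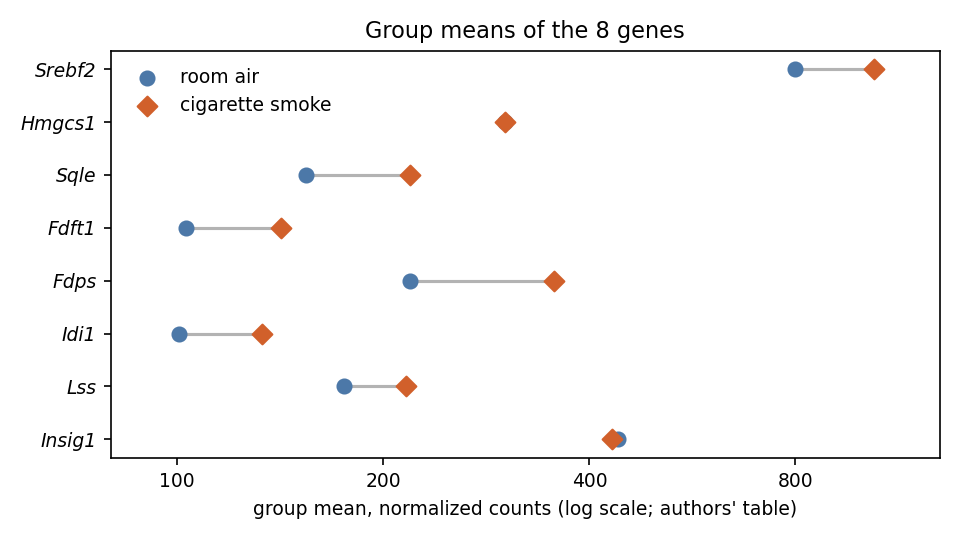
Mean of size-factor-normalized counts in the authors' deposited table for each of the 8 genes, on a log axis, for room air (circles) and cigarette smoke (diamonds), with a line joining the groups; no error can be drawn, since no values per library are used. The smoke mean lies to the right for 6 genes, while those of Hmgcs1 and Insig1 almost coincide with room air.

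Neither regulator passed the threshold. Srebf2 (ENSMUSG00000022463.8, GRCm38 chromosome 15, 82147181 to 82205379, plus strand) had a mean of 799.7 normalized counts in room air and 1043 after smoke in the authors' deposited table. The authors' deposited table put its log2 fold change at 0.38 (SE 0.30, adjusted p 0.485) and its 95% interval, from the SE and the normal distribution, ran from -0.21 to 0.97. That interval includes no change, and its upper end lies below a 2-fold rise. Srebf2 also hosts the microRNA gene Mir33 in an intron, a regulator of Abca1, for which no value is used here. Insig1 (ENSMUSG00000045294.11, chromosome 5, 28071363 to 28078662, plus strand) had means of 440.9 in room air and 431.4 after smoke in the authors' deposited table. The authors' deposited table put its log2 fold change at -0.04 (SE 0.36, adjusted p 0.971), with an interval from -0.73 to 0.66. The difference between these genes' fold changes was not tested, and their intervals overlap.

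At the entry to the mevalonate route, Hmgcs1 (ENSMUSG00000093930.2, chromosome 13, 119690379 to 119708260, plus strand) had nearly equal means in the authors' deposited table, 301.4 normalized counts in room air and 301.5 after smoke. The authors' deposited table put its log2 fold change at 0.0011 (SE 0.33, adjusted p 0.999). The interval from -0.65 to 0.66 corresponds to folds from 0.636 to 1.58. This gene holds the longer form of the sterol regulatory element printed above, and Srebf2 the shorter.

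Idi1 and Fdps make the isoprenoid units. Idi1, the isopentenyl diphosphate isomerase gene (ENSMUSG00000058258.14, chromosome 13, 8885501 to 8892451, plus strand), had means of 100.5 and 133.1 normalized counts in room air and smoke in the authors' deposited table, which put the log2 fold change at 0.40 (SE 0.54, adjusted p 0.720) with an interval from -0.65 to 1.45. Fdps, the farnesyl diphosphate synthase gene at the branch point to sterols and to protein prenylation (ENSMUSG00000059743.12, chromosome 3, 89093588 to 89101959, minus strand), had means of 218.4 and 354.7 in the authors' deposited table. Its log2 fold change of 0.70 in the authors' deposited table was the highest of the 8, but its SE of 0.53 was among the largest and the interval ran from -0.34 to 1.74. The value of Fdps is uncertain for another reason: the gene shares 1124 of its 4208 annotated exon bases with Gm43738, which lies on the same strand. Gm43738 had means of 214.4 and 342.1 normalized counts in the authors' deposited table, almost those of Fdps, with a log2 fold change of 0.67 (SE 0.465, adjusted p 0.408), and how reads common to both were counted is not given in the sources used here.

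The sterol-committed steps gave intermediate values. Fdft1, the squalene synthase gene (ENSMUSG00000021273.10, chromosome 14, 63145150 to 63179578, minus strand), had a mean of 103.0 normalized counts for room air and 141.9 after smoke in the authors' deposited table, which put the log2 fold change at 0.46 (SE 0.47, adjusted p 0.623) with an interval from -0.47 to 1.38. Sqle, the squalene epoxidase gene (ENSMUSG00000022351.14, chromosome 15, 59315077 to 59331192, plus strand), had means of 154.0 and 218.4 in the authors' deposited table, which put the log2 fold change at 0.50 (SE 0.43, adjusted p 0.531) with an interval from -0.34 to 1.34. Lss, the lanosterol synthase gene that closes the first sterol ring system (ENSMUSG00000033105.12, chromosome 10, 76531588 to 76557138, plus strand), had means of 175.0 and 215.8 in the authors' deposited table, at a log2 fold change of 0.30 (SE 0.39, adjusted p 0.712) with an interval from -0.46 to 1.06. Each of these intervals included 0, and each upper bound lay above 2-fold, at 2.61-fold for Fdft1, 2.53-fold for Sqle and 2.09-fold for Lss.

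Some of these genes lie against a gene on the other strand. Fdft1 shares 774 exon bases with Ctsb, the gene of the lysosomal protease cathepsin B, whose room air mean of 32786 normalized counts in the authors' deposited table was 318.3 times that of Fdft1. The authors' deposited table put the log2 fold change of Ctsb at 0.13 (SE 0.18, adjusted p 0.735). Hmgcs1 shares 557 exon bases with Gm48342, Lss shares 381 with 4930483K19Rik and Idi1 shares 323 with Gm48574, each on the opposite strand. The libraries were made with a directional kit, but whether strand was used in counting is not given in the sources used here. Srebf2, Sqle and Insig1 share exon bases with no other annotated gene.

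Levels can be compared between the genes per kilobase, here of the transcript numbered 201 in the annotation. From the means in the authors' deposited table, Fdps stood at 176.6 normalized counts per kilobase, Insig1 at 163.5 and Srebf2 at 157.5, followed by Hmgcs1 at 92.9 and Sqle at 55.8. The lowest were Lss at 37.5, Fdft1 at 36.0 and Idi1 at 33.2 normalized counts per kilobase. After smoke the levels were 286.7 for Fdps, 205.4 for Srebf2 and 160.0 for Insig1 on the same scale, and 43.97 for Idi1 at the lower end. The order depends on the transcript chosen: divided by the longest transcript, Fdps stood at 73.97 in room air, below Insig1, Srebf2 and Hmgcs1 (87.0), and Lss was lowest at 25.02, an alternative chosen after seeing the data. The spread between libraries is unknown for these levels, so whether neighbours in the order differ was not tested.

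**Figure D2:**
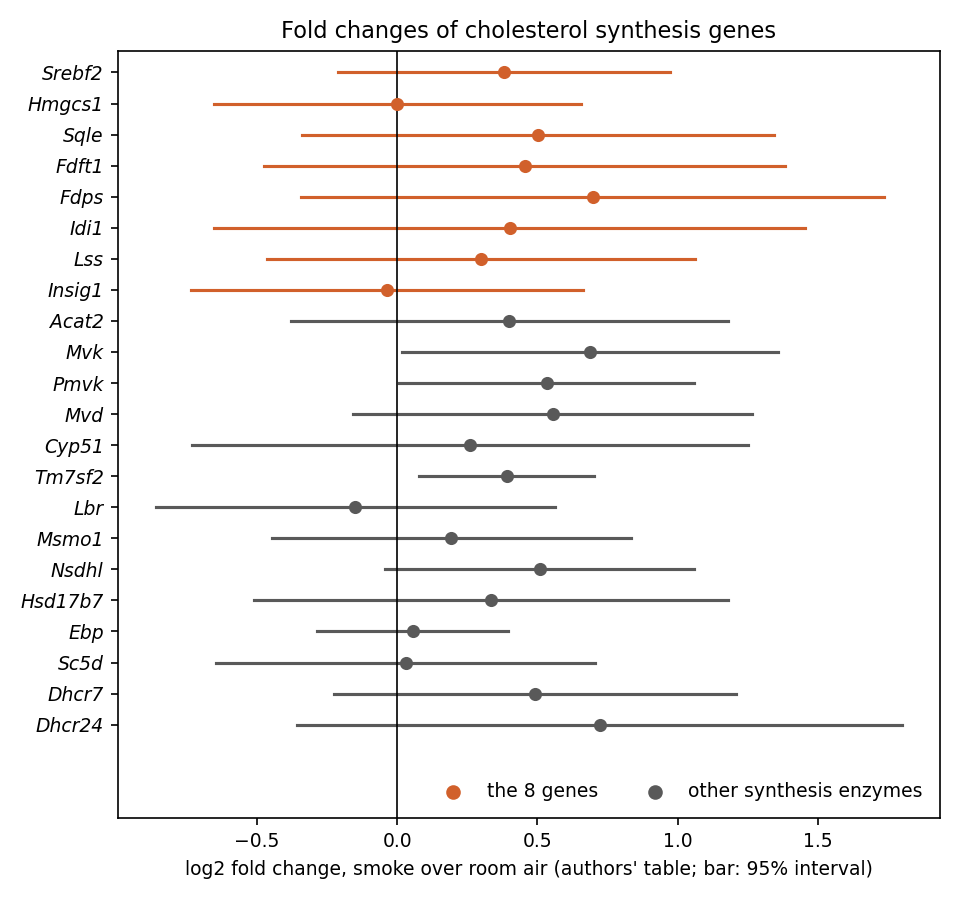
Log2 fold change of smoke over room air in the authors' deposited table for the 8 genes and 14 of 15 other enzymes of cholesterol synthesis, Lbr included; each point is the estimate with its 95% interval. All 8 intervals cross 0, and of the other enzymes shown those of Mvk, Pmvk and Tm7sf2 do not.

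The other enzymes of the route had mostly positive estimates and no calls. Of 15 further enzymes, 0 passed the threshold in either direction in the authors' deposited table, where 7.69% of all genes tested did. A log2 fold change above 0 was found for 14, and the median was 0.39, beside -0.0029 over all genes tested. An unadjusted p under 0.05 was found for 3 of the 15, a share near the 22.8% of all genes tested; they are named after their values were seen and do not stand out from that background. In the authors' deposited table Mvk, the mevalonate kinase gene, had a log2 fold change of 0.69 (SE 0.34, adjusted p 0.206), Pmvk, the phosphomevalonate kinase gene, 0.53 (SE 0.27, adjusted p 0.211) and Tm7sf2, a sterol reductase gene, 0.39 (SE 0.16, adjusted p 0.105). Over all 21 enzymes, members included, 20 estimates in the authors' deposited table were above 0 and Lbr alone was below, at -0.15 (SE 0.36). With the trend of fold changes with GC content and transcript length removed, 19 were above 0. These genes were compared in the same libraries and do not vary independently, so the number above 0 is a description and has no test.

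Genes that process SREBP or sense sterols had estimates of both signs. Of 10 such genes besides Srebf2 and Insig1, 6 had an estimate below 0 in the authors' deposited table and the median log2 fold change was -0.13. Of the 71 genes in the pathway lists 69 were tested, and 1 passed the threshold, where 7.69% of all genes tested did. That gene was Mbtps2, which encodes the site-2 protease that cuts SREBP within the membrane. In the authors' deposited table its mean was 435.8 normalized counts in room air and 331.7 after smoke, which gave a log2 fold change of -0.38 (SE 0.13, adjusted p 0.0486). Once the trend of fold changes with GC content and transcript length was removed, the log2 fold change of Mbtps2 was -0.11 and its adjusted p 0.858. The adjusted p was 0.0412 with a mean of at least 50, 0.0766 without the filter on low means and 0.0511 with the median fold change set to 0. Srebf1, the gene of the SREBP that favours fatty acid synthesis, had means of 363.5 and 485.0 in the authors' deposited table, which put the log2 fold change at 0.41 (SE 0.22, adjusted p 0.253).

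Uptake and intracellular transport were covered by 16 genes, of which 14 were tested. Of these 14, 0 passed in the authors' deposited table, where 7.69% of all genes tested did. In this list, 10 of the 14 had an estimate below 0, with a median log2 fold change of -0.09 in the authors' deposited table. Of the genes without an adjusted p, Vldlr, a lipoprotein receptor gene, stood at 13.5 normalized counts in room air and at 6.71 after smoke in the authors' deposited table. These means are low, and the log2 fold change of -1.11 (SE 0.85) had an interval from -2.78 to 0.56, which includes 0.

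The list of efflux and LXR genes holds exporters, but also genes of the oxysterol receptors LXR themselves, of their partner and of oxysterol synthesis. Of its 9 estimates in the authors' deposited table, 7 were above 0, with a median log2 fold change of 0.27. These numbers therefore do not describe efflux alone. The list had 0 calls, where 7.69% of all genes tested passed. Abca1, the main exporter to lipid-poor apolipoprotein, had the lowest estimate of that list, and the authors' deposited table put its means at 2196 in room air and 1476 after smoke and its log2 fold change at -0.57 (SE 0.32, adjusted p 0.275). The highest was that of Apoe, the apolipoprotein E gene, named after its value was seen, for which the authors' deposited table lists means of 2426 and 4811 and a log2 fold change of 0.99 (SE 0.78, adjusted p 0.485). Of 10 fatty acid synthesis genes, 9 had an estimate above 0 in the authors' deposited table, with a median of 0.18, and 7 of 11 genes of the isoprenoid branch, with a median of 0.05. None of these passed the threshold either, beside the same 7.69% of all genes tested. Differences between the lists were not tested.

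**Figure D3:**
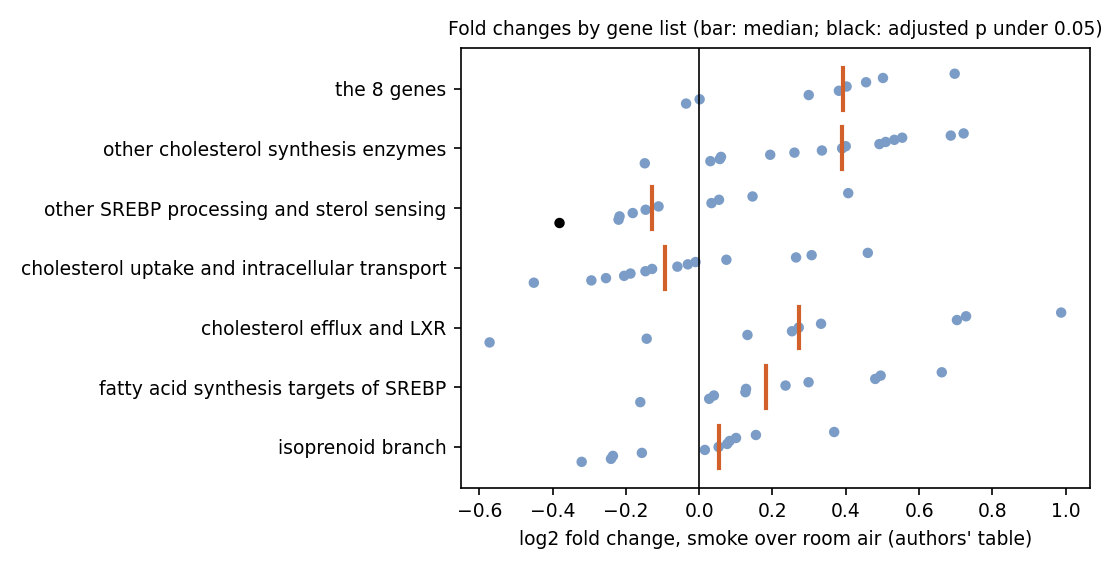
Log2 fold change of smoke over room air in the authors' deposited table for each tested gene of 7 lists (points, spread vertically for visibility), with the median of each list as a bar. Medians lie at 0.39 for the 8 genes and for the other synthesis enzymes, and at -0.13 and -0.09 for SREBP processing and for uptake; the single black point, Mbtps2, passed the threshold.

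The standard errors of the 8 genes were large for their level of expression. In the authors' deposited table the SE of the log2 fold change ran from 0.30 to 0.54, with a median of 0.41. The median SE of the genes that passed the threshold was 0.158. A small SE helps a gene to pass, so the genes that passed are no reference for a usual SE. Each gene was set beside the genes whose mean over 24 libraries was within 2-fold of its own. Of these neighbours, 96.5% had a smaller SE than Fdps, 94.9% a smaller one than Sqle, 94.0% than Insig1 and 93.4% than Srebf2. The share was 93.4% for Idi1, 92.6% for both Hmgcs1 and Fdft1, and 87.4% for Lss, the lowest. For Srebf2 the median SE of such neighbours was 0.147 in the authors' deposited table, against its own 0.30. Among all genes tested 28.9% had an SE at least as large as that of Srebf2, the smallest of the 8, and among the genes that passed the threshold 15.5% did. The deposited fit held 24 libraries, 18 of which are not analysed here, so these errors carry their spread too.

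**Figure D4:**
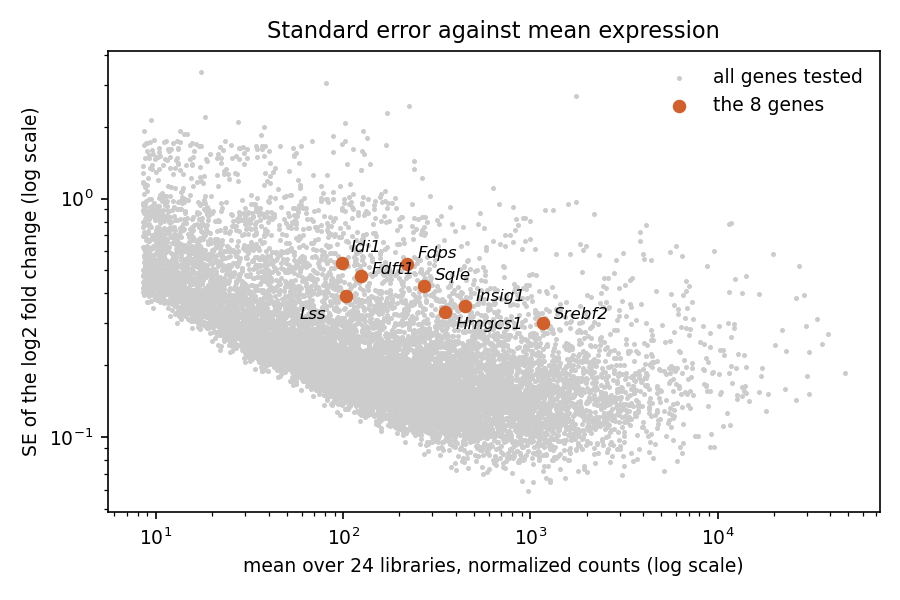
Standard error of the log2 fold change against the mean over 24 libraries for 12082 tested genes (grey) and the 8 genes (orange), both axes on a log scale, from the authors' deposited table. The 8 genes lie in the upper part of the cloud, above 87.4% to 96.5% of the genes of similar mean.

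The fold changes across all genes followed the composition of the transcripts, and the 8 genes were set against that trend. Over 12071 genes, taken as a description since genes do not vary independently, the fold changes of the authors' deposited table had a Spearman's rho of 0.483 with GC content and of -0.448 with length. The longest transcripts of the 8 genes had GC contents from 41.9% in Idi1 to 57.9% in Srebf2, with a median of 48.7% beside 49.4% over all genes tested. The trend value for the 8 ran from -0.18 for Lss to 0.10 for Srebf2. After it was removed the estimates were 0.63 for Fdps, 0.58 for Sqle, 0.52 for Idi1, 0.48 for Lss, 0.42 for Fdft1, 0.29 for Srebf2, 0.13 for Hmgcs1 and -0.07 for Insig1 on the log2 scale. The median became 0.45, the smallest adjusted p of the 8 was 0.701, and 0 of 8 passed, where 1.29% of all genes did.

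Splicing was measured as a percent inclusion level in every library with JuncBASE, which scores splicing events from reads over junctions. Of its 10376 events, 6 lay within 4 of the genes: a retained intron each in Srebf2, Sqle and Insig1, and 3 events in Fdps. No event was listed for Hmgcs1, Fdft1, Idi1 or Lss. In limma on log2 odds of inclusion, 0 of these 6 passed a Benjamini-Hochberg adjusted p of 0.05, as did 0 (0%) of all events, while 1 of the 6 had an unadjusted p under 0.05, where 10.8% of all events did. Read depth behind these levels is unknown. Levels were missing in 4169 events for cigarette smoke replicate 1, against 1 to 398 in the other libraries, and 2 of the 6 events had no level there.

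The retained intron of Insig1 was the only event in these genes whose groups did not overlap or touch. It is the intron between exons 3 and 4 of the 5 exons of Insig1-201 (chromosome 5, 28074649 to 28075061, 413 bases). Room air replicates 1, 2 and 3 retained it at 7.32%, 7.50% and 7.55%, and it was at 0% in each of the 3 smoke libraries. The groups did not overlap, and the room air mean was 7.46% ± 0.121 (SD, n = 3). With all smoke values at 0%, the size of the difference follows the pseudocount of 1 percentage point: it was -3.19 log2 odds (SE 0.42), against -4.10 with a pseudocount of 0.5 and -1.42 with 5. The difference at a pseudocount of 1 had an unadjusted p of 0.000161 in limma, the 8th lowest rank of 10376 events, and an adjusted p of 0.128, which did not pass. The limma adjusted p was 0.0598 with a pseudocount of 0.5, 0.327 with 5, 0.609 with a replicate block and between 0.111 and 0.185 in 5 of the 6 omissions of a single library. It passed in 2 of the alternatives, at 0.0400 among the 5933 events with a level in all 6 libraries, of which 23 passed, and at 0.0148 without cigarette smoke replicate 3, where 717 of 6018 events passed. In the authors' deposited table of JuncBASE events the p-value of this intron was 0.273.

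That pattern was not particular to Insig1. Of 1992 retained introns with a level in all libraries, 38.7% had every smoke value below every room air value, as did 19.3% of events of all kinds. An intron at 0% in all 3 smoke libraries and above 0% in all 3 room air libraries was found 70 times (3.51%), and the reverse 0 times. Among the 738 introns with a room air mean of 5% to under 10%, like that of Insig1, 5.15% showed it. Levels of exactly 0% made up 63.9%, 54.6% and 15.2% of retained introns in cigarette smoke replicates 1, 2 and 3, and 18.4%, 4.39% and 12.3% in room air replicates 1, 2 and 3. The part of this shift in the Insig1 values was not tested.

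In the other retained introns the groups overlapped. In Srebf2, the intron between exons 4 and 5 of Srebf2-201 (chromosome 15, 82172900 to 82175096) was retained at 7.14%, 2.44% and 12.5% in room air and at 8.33%, 11.1% and 6.25% in smoke. The groups overlapped, with means of 7.36% ± 5.03 and 8.56% ± 2.44 (SD, n = 3 each), a difference of 0.39 log2 odds (SE 0.66; limma adjusted p 0.790). Without room air replicate 2, the lowest library, the estimate turned to -0.18. In Sqle, the last intron of Sqle-201, between exons 10 and 11 (chromosome 15, 59329828 to 59330724), was retained at high levels of 39.1%, 53.9% and 42.4% in room air. Its levels were 31.6% and 65.6% in smoke replicates 2 and 3, with none in replicate 1, so the smoke values lay to both sides of room air (0.19 log2 odds, SE 0.78; limma adjusted p 0.923). Leaving out a single room air library moved the estimate to between 0.02 and 0.44 log2 odds. Averaged over the introns of Srebf2 and Insig1, which had a level in every library, retention was 7.23%, 4.97% and 10.0% in room air and 4.17%, 5.56% and 3.13% in smoke. The groups overlapped and the difference of -3.13 percentage points had p = 0.2 in an exact two-sided permutation test, where 3 against 3 libraries allow no less than 0.1. With Insig1 left out by a minimum mean level of 5%, the difference was 1.20 percentage points.

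Fdps had 3 events. At the 5′ end, an alternative acceptor, scored against the junction of exons 1 and 2 of Fdps-201 (chromosome 3, 89100832 to 89101861, minus strand), was used at 6.25%, 8.70% and 7.32% in room air. The smoke values were 0%, 6.45% and 4.55%, so the groups overlapped by 1 library (-1.33 log2 odds, SE 0.84; limma adjusted p 0.541). The estimate was -0.41 without cigarette smoke replicate 1, the library at 0%, and -0.65 with a pseudocount of 5. An alternative first exon of 216 bases within that intron (89100921 to 89101136) was included at 9.09%, 0% and 10.7% in room air and at 17.4% and 3.45% in smoke replicates 2 and 3 (0.94 log2 odds, SE 1.38; limma adjusted p 0.758). Without room air replicate 2 that estimate turned to -0.25.

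Within the coding sequence, exon 5 of the 10 exons of Fdps-201 was scored as a cassette exon, through a skipping junction that is not in the annotation. Skipping removes 123 bases, which is 41 codons and keeps the reading frame. The exon is shown because skipping was scored in 2 smoke libraries, although the event did not pass the threshold. It lies at chr3:89095354-89095476 on the minus strand of GRCm38, wholly in coding sequence, and reads 5′ to 3′ as follows.
Fdps exon: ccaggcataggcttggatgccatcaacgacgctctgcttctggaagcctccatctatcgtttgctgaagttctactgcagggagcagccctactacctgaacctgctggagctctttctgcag
It was included at 100% in all 3 room air libraries and at 92.0%, 95.7% and 100% in smoke replicates 1, 2 and 3. The groups touched at 100%, and the difference of -1.92 log2 odds (SE 0.87) had an adjusted p of 0.476 in limma. The estimate was -1.24 (limma adjusted p 0.551) without cigarette smoke replicate 1, -1.64 (0.471) without replicate 2 and -0.82 (0.461) with a pseudocount of 5. Without cigarette smoke replicate 3, the smoke library with no skipping, it was -2.89 and the adjusted p in limma 0.0167, in the same setting in which 717 of 6018 events passed.

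**Figure D5:**
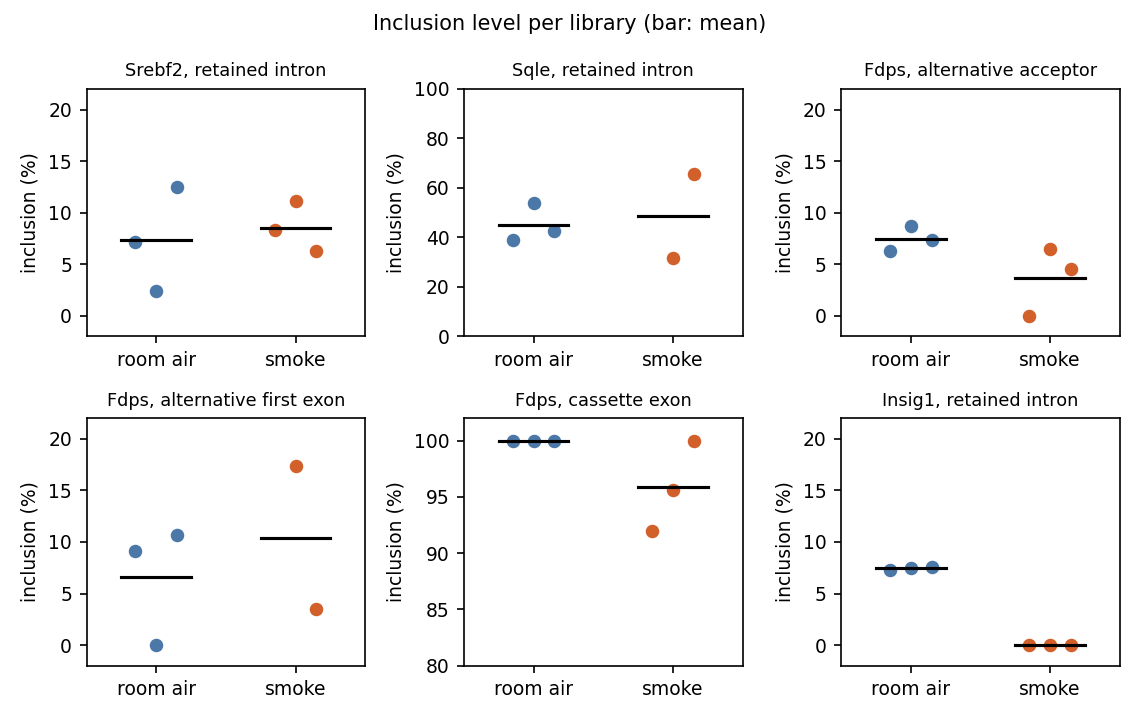
Inclusion level in percent of the 6 events in 4 of the genes, with 1 point per library and a bar at the group mean; the vertical axis differs for Sqle and for the cassette exon of Fdps, which does not start at 0. The groups separate in the intron of Insig1, at about 7.5% in room air and 0% in smoke, and overlap or touch in the others.

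Retained introns were also listed by rMATS, with 4 of 3887 within these genes. They were the introns between exons 2 and 3 of Srebf2-201 and between the last exons of another Srebf2 transcript (chromosome 15, 82203837 to 82204026), and those between exons 4 and 5 and between exons 13 and 14 of Lss-201. In the authors' deposited table of rMATS introns, 0 of the 4 had a false discovery rate under 0.05, where 14.5% of all introns did. The lowest was that of the Lss intron between exons 13 and 14 (chromosome 10, 76544537 to 76545450), with a difference of 3.1 percentage points between sample sets 1 and 2 and a rate of 0.186, both as the authors' deposited table lists them. Which group each set holds is not stated, so no direction is given. For the 2 introns of Srebf2 the authors' deposited table lists differences of 0.5 and -0.4 percentage points. The Insig1, Sqle and Fdps events described above were not among its introns.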

How the data were processed

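The members and gene lists were chosen with earlier results of these data known. The submitters' processing notes name mm10, STAR, DESeq2, SAMtools 1.9 and bedtools 2.27.1. The authors deposited group means of size-factor-normalized counts (a signal), a log2 fold change with its standard error, a Wald score, and p-values, from a DESeq2 fit over 24 libraries per the file headers. Over 8776 genes the deposited fold change and the log2 ratio of means correlated at 0.999. The authors also deposited JuncBASE percent inclusion per library and rMATS difference scores. The rMATS columns of per-sample values (6) were not used, since their groups are not stated. Coordinates and transcript length came from GENCODE M21 (GRCm38), which matched 99.9% of gene IDs, and 98.7% of known JuncBASE events had annotated exclusion junctions. The merged annotation, which holds other coordinates as deposited, gave no value.

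The planned count test was replaced by the deposited comparison, called at an adjusted p under 0.05. Inclusion p became log2((p + 1)/(100 - p + 1)) and was fitted over all events with a level in at least 2 libraries per group with limma 3.58.1 in R 4.3.3. The GC and length trend was a fit with natural splines (4 degrees of freedom for each term). Both were also run on simulated data with normally distributed errors, which for splicing had no missing levels. The outcome is not given here, so these runs are not offered as support. Named genes were the 8 members, their events, list genes past the threshold, and Srebf1 and Abca1 whatever their value; some other genes that the rule names are not reported here. Mvk, Pmvk, Tm7sf2, Lbr, Apoe and Vldlr fall outside that rule and were named after their values were seen; genes that share exon bases with members were named for that overlap.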

Additional observations from a re-analysis of the deposited data

How the results depend on the processing

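None of the 8 genes passed the threshold under any of the 6 alternatives tried for expression. Changing the filter on low means leaves a fold change as it is and setting the median to 0 shifts all alike. Removing the trend kept the sign of all 8 values, but the trend values of -0.18 to 0.10 were small beside most of the estimates. The direction was therefore hardly put to the test. The count of pathway genes past the threshold was 1 of 69 tested as deposited, where 7.69% of all genes tested passed. It was 4 at an adjusted p under 0.1 (12.8% of all genes). It was 0 at 0.01 (3.03%) and with the GC and length trend removed (1.29%). It was also 0 without the filter on low means (3.55%) and with the median fold change set to 0 (7.66%). Over all genes, 929 calls became 1547 at an adjusted p under 0.1, 366 at 0.01 and 156 with the trend removed, of which 64.7% were higher after smoke, against 54.0% as deposited. Of the 6 splicing events, 1 passed among events with a level in all 6 libraries, 1 had an unadjusted p under 0.05, and leaving out single libraries gave 0 to 2, the 2 without cigarette smoke replicate 3, where 717 of all 6018 events passed. The replicate block left 0 of the 6 past the threshold, and 0 of all events. The numbers share no stated origin and same-numbered libraries correlated at 0.018, -0.040 and -0.089, so they were not taken as pairs. The difference in mean retention reversed from -3.13 to 1.20 percentage points with a minimum level of 5%, and ran from -4.35 to -1.82 percentage points over single libraries left out. The Srebf2 intron and the Fdps first exon turned to -0.18 and -0.25 log2 odds without room air replicate 2, with ranges over single libraries left out of -0.18 to 0.88 and -0.25 to 1.60. Leaving out a library was not possible for expression, which rests on group means, and coverage behind the splicing levels is unknown.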
